A study of Mus musculus with 12 samples.

Results

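The collagen and lysyl oxidase genes of the mouse kidney were examined after loss of the clock transcription factor BMAL1 from tubule cells. Members were all protein-coding genes with a symbol of the form Col, a number, a and a number, plus Lox and Loxl1 to Loxl4, with a mean CPM (counts scaled to library size) of at least 0.2 over the 12 libraries. Of 49 candidate symbols among 38924 gene IDs, 41 met this rule, 36 collagen genes and 5 lysyl oxidase genes, and all 41 passed the filter on low counts. Col28a1 lay just inside the minimum at 0.239 CPM and Col11a1 just outside at 0.136 CPM. The 8 candidates under it were Col11a1, Col9a3, Col22a1, Col9a2, Col17a1, Col10a1, Col2a1 and Col9a1.

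Collagens are proteins of 3 chains wound into a triple helix, and they give tissue its tensile frame. Fibrillar collagens such as types I and III form the fibrils of the interstitium, and type IV collagen forms the sheet-like network of basement membranes. Lysyl oxidases are secreted copper enzymes that oxidise lysines of collagen and elastin so that neighbouring molecules become cross-linked. In the kidney the chains encoded by Col4a3, Col4a4 and Col4a5 build the mature glomerular basement membrane, and loss of any of them causes Alport disease in humans.

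Whole kidneys were sequenced as 12 libraries of poly(A) RNA in 4 groups of 3 libraries each: knockout (KO) at zeitgeber time 16 (ZT16), wild type (WT) at ZT16, KO at ZT4 and WT at ZT4. ZT4 is 4 h after lights on and ZT16 is 4 h after lights off in a day of 12 h light and 12 h dark. KO mice carried Bmal1lox/lox (Arntl is the gene of BMAL1), Pax8-rtTA and LC1, a Cre transgene that doxycycline switches on in tubule cells, and drank water with 2 mg/ml doxycycline for 2 weeks, starting when 8 weeks old. WT mice were littermates, all were on the C57BL/6J background, and the labels give neither the sex or age at death of the mice nor whether WT mice received doxycycline. Cells that do not express Pax8, among them most fibroblasts and endothelial cells, keep the gene in this model.

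Gene counts summed to 25628887 to 38043491 per library, of which the 41 members took 0.0702% to 0.194%. Whether replicate libraries are separate mice is not in the labels, so the tests weigh differences against a library-to-library spread that could be technical. Arntl counts, taken over all exons and all kidney cells, passed no test in edgeR (log2 fold change KO over WT of 0.43 ± 0.15 (SE) at ZT16, adjusted p = 0.151, and -0.08 ± 0.14 at ZT4, adjusted p = 0.777) and so do not check the labels. Nr1d2, a direct BMAL1 target, was lower in the libraries labelled KO (-1.96 ± 0.15 at ZT16 and -2.00 ± 0.15 at ZT4). KO ZT16 replicate 2 stood apart from KO ZT16 replicates 4 and 6: on the first principal component it lay at 43.0, against -9.73 and -11.8, and mitochondrial genes took 22.3% of its counts, against 14.1% and 14.0%. On that component it lay among the WT ZT16 libraries (29.8, 25.1 and 49.0). Some summed cell type markers, in CPM after scaling, set it apart from replicates 4 and 6 too. They were 43.2, against 15.4 and 25.6, for urothelium and 48.0, against 5.59 and 23.4, for adipocytes. Proximal tubule markers summed to 7647, against 9837 and 9759. Macrophage markers did not stand apart (100.6, against 95.6 and 109.4). The part of tissue make-up in the member values was not tested. The Nr1d2 level of this library, 33.7 CPM after scaling, was on the KO side, against 96.3 to 111.6 CPM in WT ZT16 libraries. Counts of members called are therefore given with and without this library, as are the fold changes of some of the members.

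Per kilobase of exon, the basement membrane genes led. Col4a3 averaged 32.1 CPM per kilobase over the 12 libraries, Col18a1 19.9, Col4a1 18.9, Col4a2 15.3 and Col4a4 13.1. Of the fibrillar genes, Col1a2 had 4.19 and Col3a1 3.47 CPM per kilobase, and of the lysyl oxidases Loxl4 had 4.21 and Loxl1 2.49, an order that held in KO and not in WT kidneys, as described below. Col25a1, a transmembrane collagen, had the lowest value of the members at 0.0239. All other levels below are CPM after TMM scaling (trimmed mean of M values) and compare libraries, not genes.

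Between genotypes, Loxl4 and Col6a6 stood far above WT in KO kidneys at both times, and a smaller rise covered several network-forming collagens. At ZT16 4 members were called higher in KO and 1 lower (adjusted p under 0.05 in edgeR's quasi-likelihood test, adjusted over the 16150 tested genes), where 4.03% of all tested genes were called, 2.07% higher and 1.96% lower. At ZT4 3 members were called higher and none lower, where 3.29% of all tested genes were called, 1.63% higher and 1.66% lower. Averaged over both times 8 were called higher and 1 lower, where 11.4% of all tested genes were called, 6.04% higher and 5.31% lower. All KO libraries lay above all WT libraries for 10 members at ZT16 and 13 at ZT4, as for 7.92% and 19.3% of all tested genes, and below them for 2 at ZT16 and 3 at ZT4, as for 7.95% and 18.4%. The median log2 fold change of the 41 members was 0.13 at ZT16 and 0.18 at ZT4, and that of all tested genes 0.02 at ZT16 and 0.00 at ZT4. The summed level of the 41 members was 945.4 to 1482 CPM in KO ZT16 libraries, against 860.7 to 938.4 CPM in WT ZT16 libraries, and 1571 to 1709 CPM in KO ZT4 libraries, against 1063 to 1425 CPM in WT ZT4 libraries. The share of counts from mitochondrial genes ran the other way, with 14.0% to 22.3% in KO ZT16 libraries, against 18.7% to 22.4% in WT ZT16 libraries, and 12.6% to 12.8% in KO ZT4 libraries, against 16.3% to 18.0% in WT ZT4 libraries. Its part in the member values was not tested. The 3 members called at ZT4 (Loxl4, Col6a6 and Col8a1) were all among those called at ZT16, which added Col4a3 as higher and Col27a1 as lower. The comparisons over both times share their libraries with those at each time.

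The lysyl oxidases come first, since Loxl4 had the clearest difference of the family. Loxl4 encodes a lysyl oxidase with scavenger receptor domains before its catalytic domain. It had 27.6, 28.5 and 33.0 CPM in KO ZT16 libraries (replicates 2, 4 and 6), against 2.34, 3.20 and 3.16 CPM in WT ZT16 libraries (replicates 1, 3 and 5). At ZT4 it had 36.4, 31.6 and 34.1 CPM in KO libraries, against 5.41, 2.93 and 4.75 CPM in WT libraries. Every KO library lay above every WT library, by a wide margin at both times. KO kidneys held 10.2 times the WT level at ZT16 (log2 fold change 3.35 ± 0.19 (SE), adjusted p = 1.6e-06) and 7.73 times at ZT4 (2.95 ± 0.19, adjusted p = 3.83e-06), and both calls held under every alternative run. These values rest on 68 to 1377 reads per library. Loxl4 lies on the minus strand of chromosome 19 (42593982 to 42612813, GRCm38). The bases just upstream of its start, from RefSeq on GRCm38.p6, are shown because this gene had the largest genotype difference of the lysyl oxidases; they cover chr19:42612814-42613056 on the minus strand and are 75.7% G or C.
Loxl4: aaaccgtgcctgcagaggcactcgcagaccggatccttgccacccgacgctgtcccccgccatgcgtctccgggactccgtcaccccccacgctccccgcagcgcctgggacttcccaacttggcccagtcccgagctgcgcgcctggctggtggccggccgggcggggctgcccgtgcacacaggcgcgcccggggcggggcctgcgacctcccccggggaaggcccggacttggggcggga

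**Figure D1:**
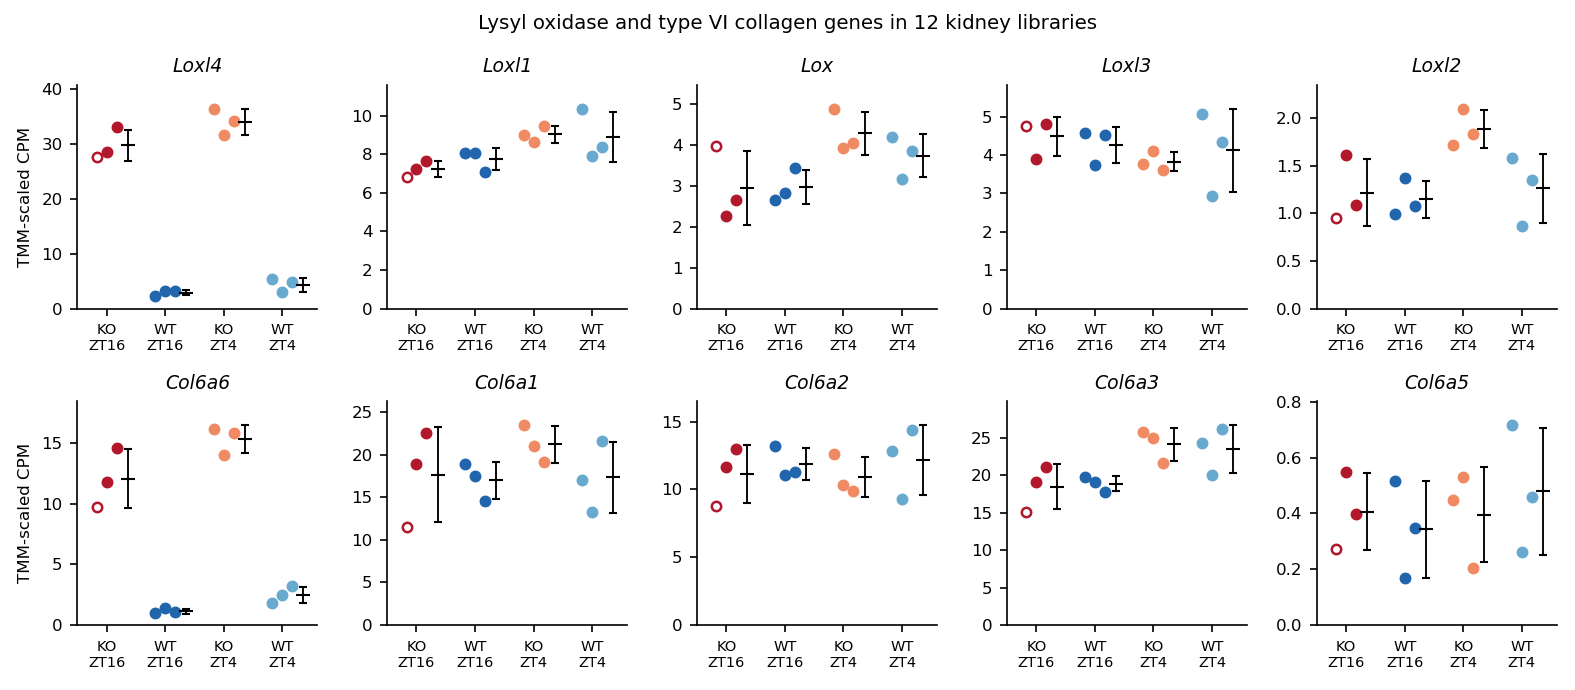
Levels of lysyl oxidase and type VI collagen genes (y axis, TMM-scaled CPM, from 0) in the 12 libraries by group (x axis). Each point is a library, the open point is KO ZT16 replicate 2, and black bars give the mean and SD of 3 libraries. Loxl4 and Col6a6 have every KO library above every WT library.

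The other 4 lysyl oxidases passed no genotype comparison. Lox, the founding member of the family, had 3.97, 2.25 and 2.64 CPM in KO ZT16 libraries, against 2.65, 2.83 and 3.43 in WT ZT16 libraries, and 4.89, 3.91 and 4.05 in KO ZT4 libraries, against 4.18, 3.16 and 3.86 in WT ZT4 libraries. Loxl1, whose product is needed for elastic fibre renewal in mice, had 6.81, 7.22 and 7.63 CPM in KO ZT16 libraries, against 8.08, 8.04 and 7.08 in WT ZT16 libraries, and 8.98, 8.63 and 9.46 in KO ZT4 libraries, against 10.4, 7.93 and 8.36 in WT ZT4 libraries. KO and WT libraries of both genes overlapped at both times. Loxl2 had 0.958, 1.62 and 1.09 CPM in KO ZT16 libraries, against 0.997, 1.37 and 1.08 in WT ZT16 libraries, and 1.72, 2.11 and 1.84 in KO ZT4 libraries, against 1.58, 0.865 and 1.35 in WT ZT4 libraries. At ZT4 its KO libraries all lay above its WT libraries, without passing the adjusted test (0.56 ± 0.24, adjusted p = 0.247). Loxl3 had 4.75, 3.90 and 4.81 CPM in KO ZT16 libraries, against 4.57, 3.73 and 4.51 in WT ZT16 libraries, and 3.78, 4.09 and 3.61 in KO ZT4 libraries, against 5.08, 2.93 and 4.35 in WT ZT4 libraries. Those Loxl3 groups overlapped too, and 11.6% of its exonic length is shared with Htra2 on the opposite strand, whose reads cannot be told apart without a stated strand setting. Relative to Loxl1 per kilobase, Loxl4 stood at 3.21 ± 0.151 (SD, n = 3) in KO ZT16 libraries, against 0.295 ± 0.0628 in WT ZT16 libraries, and at 2.95 ± 0.189 in KO ZT4 libraries, against 0.381 ± 0.0811 in WT ZT4 libraries. Loxl4 was thus the more abundant of this pair in KO and the less abundant in WT kidneys.

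Type VI collagen forms beaded filaments close to cell surfaces, and Col6a6 encodes an alternative chain that is thought to take the place of the Col6a3 product. Col6a6 had 9.71, 11.8 and 14.6 CPM in KO ZT16 libraries, against 0.962, 1.37 and 1.04 CPM in WT ZT16 libraries. At ZT4 it had 16.1, 14.0 and 15.9 CPM in KO libraries, against 1.82, 2.44 and 3.19 CPM in WT libraries. The 6 KO libraries all exceeded the 6 WT libraries. KO levels were 10.6 times WT at ZT16 (3.40 ± 0.22 (SE), adjusted p = 4.22e-06) and 6.16 times WT at ZT4 (2.62 ± 0.20, adjusted p = 1.93e-05), on 28 to 610 reads per library, and every alternative kept both calls. The other 5 type VI genes were not called: Col6a1, Col6a2 and Col6a3, which encode the standard chains, had log2 fold changes of 0.06, -0.09 and -0.03 at ZT16 and 0.29, -0.16 and 0.04 at ZT4. Set against Col6a3 per kilobase, Col6a6 stood at 0.85 ± 0.049 (SD, n = 3) in KO ZT16 libraries, against 0.078 ± 0.0154 in WT ZT16 libraries, and at 0.834 ± 0.114 in KO ZT4 libraries, against 0.138 ± 0.0353 in WT ZT4 libraries. Col6a5 and Col6a4 follow Col6a6 on chromosome 9, on the same strand, with gaps of 27917 and 28810 bases, and averaged 0.413 and 0.355 CPM over the 12 libraries before TMM scaling. Their KO and WT libraries overlapped at both times, and neither was called.

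Upstream of the Col6a6 start (chr9:105828161-105828335, minus strand, RefSeq on GRCm38.p6) lies the sequence below, shown because this gene and Loxl4 had the largest differences; the capitals mark CACGTT, 1 base away from the E-box CACGTG that BMAL1 binds with CLOCK.
Col6a6: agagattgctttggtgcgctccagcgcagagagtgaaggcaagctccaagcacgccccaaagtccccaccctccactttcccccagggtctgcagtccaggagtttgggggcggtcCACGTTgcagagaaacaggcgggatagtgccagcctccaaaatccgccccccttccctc
Promoter windows of 250 bases before to 50 after the start were found for 31 of the 41 members. None of the 31 held CACGTG on either strand, which 7.15% of all 32851 windows hold. CACGTT, searched after this sequence had been read, was in 2 of the 31 (Col6a6 and Col4a4) and in 4.68% of all windows. The nuclear receptor motif AGGTCA was in 6 of the 31 and in 16.3% of all windows, and the D-box (TTATGTAA or TTACGTAA) was in none and in 1.06% of all windows. These matches describe letters in short windows and say nothing of binding.

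All 6 type IV genes had positive log2 fold changes in KO kidneys at both times, and Col4a3, the most abundant per kilobase, was called at ZT16. Col4a3 had 248, 453 and 413 CPM in KO ZT16 libraries, against 187, 198 and 198 CPM in WT ZT16 libraries. At ZT4 it had 441, 434 and 435 CPM in KO libraries, against 261, 255 and 314 CPM in WT libraries. No KO library overlapped WT at either time, but KO ZT16 replicate 2 lay nearer to the WT libraries than to its replicates. The log2 fold change was 0.93 ± 0.17 (SE, 1.91-fold, adjusted p = 0.00883) at ZT16 and 0.66 ± 0.17 (adjusted p = 0.0627) at ZT4; the ZT16 value was 1.15 without KO ZT16 replicate 2 and lost its call when only the 6 libraries compared were fitted (adjusted p = 0.117). On the opposite strand, 5.65% of the exonic length of Col4a3 is shared with C430014B12Rik.

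Col4a4, which shares a promoter region with Col4a3, had 95.9, 191 and 176 CPM in KO ZT16 libraries, against 94.96, 91.5 and 85.0 CPM in WT ZT16 libraries. In KO ZT4 libraries it had 204.5, 182 and 172 CPM, against 109.4, 115 and 148 CPM in WT ZT4 libraries. Col4a4 was called over both times (0.68 ± 0.15, 1.6-fold, adjusted p = 0.0111), as was Col4a3 (0.80 ± 0.12, adjusted p = 0.00131), and both calls held with each library left out. The starts of these genes lie 72 bases apart on chromosome 1 and point away from each other. The 71 bases between them (chr1:82586850-82586920, RefSeq on GRCm38.p6, printed on the minus strand as read toward Col4a4) are shown because the 2 genes moved together, and they hold none of the motifs searched.
Col4a4 and Col4a3: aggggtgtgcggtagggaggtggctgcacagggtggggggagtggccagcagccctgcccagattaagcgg
The ratio of Col4a3 to Col4a4 per kilobase stayed within 2.50 to 2.75 in KO ZT16 libraries, 2.1 to 2.48 in WT ZT16 libraries, 2.30 to 2.69 in KO ZT4 libraries and 2.26 to 2.54 in WT ZT4 libraries. The KO and WT ratios overlapped at ZT4, and at ZT16 every KO ratio lay above every WT ratio. Over the same libraries the Col4a3 level spanned a 2.42-fold range, more than the ratio did.

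Col4a5, the third chain of the glomerular network, lies on the X chromosome. It had 40.1, 55.2 and 55.0 CPM in KO ZT16 libraries, against 34.8, 40.9 and 40.0 CPM in WT ZT16 libraries, and 63.1, 59.2 and 56.5 CPM in KO ZT4 libraries, against 46.1, 41.5 and 51.9 CPM in WT ZT4 libraries. The groups separated at ZT4 and overlapped at ZT16 through KO ZT16 replicate 2. It was called over both times (0.37 ± 0.09, 1.29-fold, adjusted p = 0.022), a call lost without any of 7 libraries (WT ZT4 replicates 1 and 3, KO ZT4 replicates 2 and 4, WT ZT16 replicate 1 and KO ZT16 replicates 4 and 6), where the adjusted p reached at most 0.0628. Its head-to-head neighbour Col4a6, whose start lies 1309 bases away, was not called (0.41 ± 0.13 over both times, adjusted p = 0.0662).

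Col4a1 and Col4a2 encode the chains found in nearly all basement membranes and start 21 bases apart on chromosome 8. Col4a1 had 90.8, 143 and 152 CPM in KO ZT16 libraries, against 98.9, 97.8 and 83.7 CPM in WT ZT16 libraries, and 197.5, 177 and 192 CPM in KO ZT4 libraries, against 158, 129.5 and 174 CPM in WT ZT4 libraries. Col4a2 had 60.5, 99.9 and 103 CPM in KO ZT16 libraries, against 72.2, 72.3 and 59.6 CPM in WT ZT16 libraries, and 147, 133 and 134 CPM in KO ZT4 libraries, against 113, 94.2 and 130.2 CPM in WT ZT4 libraries. Both separated the genotypes at ZT4 and overlapped at ZT16, and neither passed a genotype test (over both times 0.38 ± 0.12, adjusted p = 0.0608, for Col4a1 and 0.33 ± 0.13, adjusted p = 0.111, for Col4a2). At ZT4 all 6 type IV genes had KO libraries wholly above WT libraries, a separation in that direction that 19.3% of all tested genes showed, and at ZT16 2 of the 6 did, against 7.92% of all tested genes. Measured against Col4a1 per kilobase, Col4a3 stood at 2.15 ± 0.189 (SD, n = 3) in KO ZT16 libraries, against 1.57 ± 0.185 in WT ZT16 libraries, and at 1.74 ± 0.0865 in KO ZT4 libraries, against 1.35 ± 0.116 in WT ZT4 libraries.

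**Figure D2:**
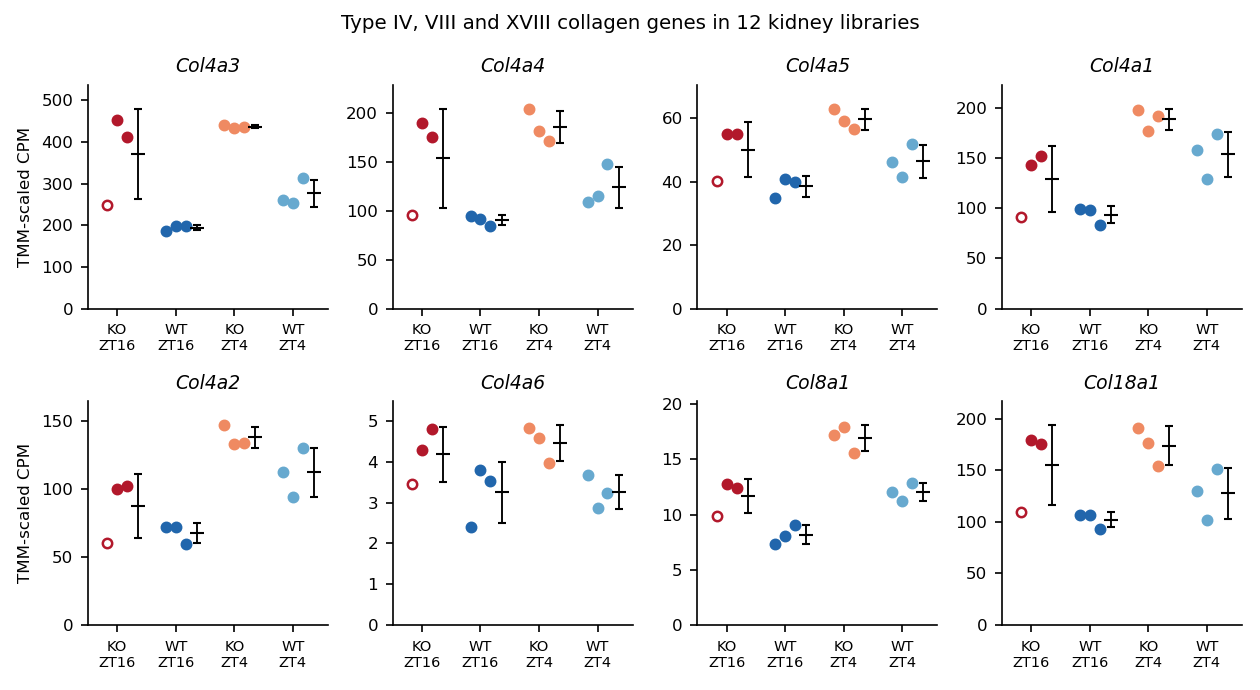
Levels of type IV, VIII and XVIII collagen genes (y axis, TMM-scaled CPM, from 0) in the 12 libraries by group (x axis), with the mean and SD of 3 libraries as black bars and KO ZT16 replicate 2 as the open point. At ZT4 each gene has KO above WT, and at ZT16 the open point lies below the other KO libraries in every panel.

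Podocytes make the chains of the glomerular network, so podocyte markers were read beside these genes. Of 7 markers none was called between the genotypes, and KO ZT16 replicate 2 had the lowest sum of its group. All 7 had positive log2 fold changes, KO over WT, at ZT4 (median 0.228), and 5 of the 7 did at ZT16 (median 0.084). Their summed level was 185 to 251 CPM in KO ZT16 libraries, against 186 to 229.7 CPM in WT ZT16 libraries, and 292 to 307 CPM in KO ZT4 libraries, against 236 to 287 CPM in WT ZT4 libraries. The 3 markers of the parietal epithelium that lines the glomerular capsule summed to 44.6 to 49.2 CPM in KO ZT16 libraries, against 22.5 to 24.3 CPM in WT ZT16 libraries, and to 64.0 to 72.9 CPM in KO ZT4 libraries, against 36.2 to 37.3 CPM in WT ZT4 libraries. Of those 3, 2 were called higher over both times, where 6.04% of all tested genes were. The part of the podocyte and parietal markers in the type IV result was not tested. Tubule markers were read as well, and none was called higher over both times. Called lower were 1 of 4 for the thick ascending limb and distal convoluted tubule, 1 of 6 for the proximal tubule and 0 of 6 for the collecting duct. Of all tested genes, 5.31% were called lower. In the first of these lists 3 of 4 log2 fold changes were positive, with a median of 0.215. For the proximal tubule 2 of 6 were positive (median -0.068), and for the collecting duct 2 of 6 (median -0.033). Whether tubule cells gave part of the type IV counts was not tested. In whole tissue, more cells of a type and more RNA per cell cannot be told apart.

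Col8a1, a short-chain network collagen, was called in all 5 comparisons between groups. It had 9.89, 12.8 and 12.4 CPM in KO ZT16 libraries, against 7.36, 8.07 and 9.09 CPM in WT ZT16 libraries, and 17.2, 18.0 and 15.6 CPM in KO ZT4 libraries, against 12.1, 11.2 and 12.9 CPM in WT ZT4 libraries. KO lay above WT at each time without overlap. The log2 fold change was 0.52 ± 0.12 at ZT16 (adjusted p = 0.0345), 0.49 ± 0.12 at ZT4 (adjusted p = 0.0465) and 0.50 ± 0.09 over both (1.42-fold, adjusted p = 0.00258). The value over both times kept its call under every alternative; that at ZT16 was lost without any of 8 libraries, all but WT ZT4 replicates 3 and 5, WT ZT16 replicate 5 and KO ZT16 replicate 2, and that at ZT4 without any but KO ZT16 replicate 2 and WT ZT16 replicate 5 (log2 fold changes of 0.44 to 0.62 at ZT16 and 0.44 to 0.54 at ZT4 over the omissions). The ZT16 call was also lost with only the 6 libraries compared (adjusted p = 0.224), and the ZT4 call with RLE scaling (adjusted p = 0.0507), upper-quartile scaling (adjusted p = 0.0512) or no filter on low counts (adjusted p = 0.0552).

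Col18a1, a multiplexin of basement membranes whose cleaved end is endostatin, had 109.9, 179 and 176 CPM in KO ZT16 libraries, against 106, 106 and 93.3 CPM in WT ZT16 libraries. In KO ZT4 libraries it had 191, 176.5 and 154 CPM, against 129.9, 102 and 151 CPM in WT ZT4 libraries. No library overlapped between the genotypes at either time, though the lowest KO and highest WT library lay close. It was called over both times (0.52 ± 0.13, 1.44-fold, adjusted p = 0.0218), and 0.62 was found without KO ZT16 replicate 2; the call was lost without any of 7 libraries (WT ZT4 replicates 1 and 3, KO ZT4 replicates 2 and 4, WT ZT16 replicate 5, KO ZT16 replicates 4 and 6), with an adjusted p of at most 0.0626. Col20a1, a low fibril-associated collagen, was also called over both times (0.64 ± 0.19, 1.56-fold, adjusted p = 0.0479), and 9 of the 12 omissions ended that call, all but those of WT ZT4 replicate 5, WT ZT16 replicate 1 and KO ZT16 replicate 2 (0.53 to 0.77).

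Col27a1, a fibrillar collagen of cartilage matrix in mice, was the member called lower in KO kidneys. It had 13.5, 24.1 and 24.9 CPM in KO ZT16 libraries, against 44.8, 40.97 and 32.9 CPM in WT ZT16 libraries, and 16.8, 21.7 and 19.9 CPM in KO ZT4 libraries, against 21.4, 22.3 and 30.3 CPM in WT ZT4 libraries. The groups separated at ZT16 and overlapped at ZT4. Its log2 fold change was -0.93 ± 0.22 at ZT16 (0.526 of the WT level, adjusted p = 0.0326) and -0.34 ± 0.22 at ZT4 (adjusted p = 0.405); the difference between these, tested as the interaction, was -0.58 ± 0.30 with an adjusted p of 1.0. The ZT16 value was -0.71 without KO ZT16 replicate 2, still called, and lost its call without WT ZT16 replicate 1 or 3 or KO ZT4 replicate 6 (-1.07 to -0.71 over all omissions), and when only the 6 libraries compared were fitted (adjusted p = 0.179). Markers of cartilage and bone were at the floor, with Acan, Matn1 and Ibsp at 0 in every library.

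**Figure D3:**
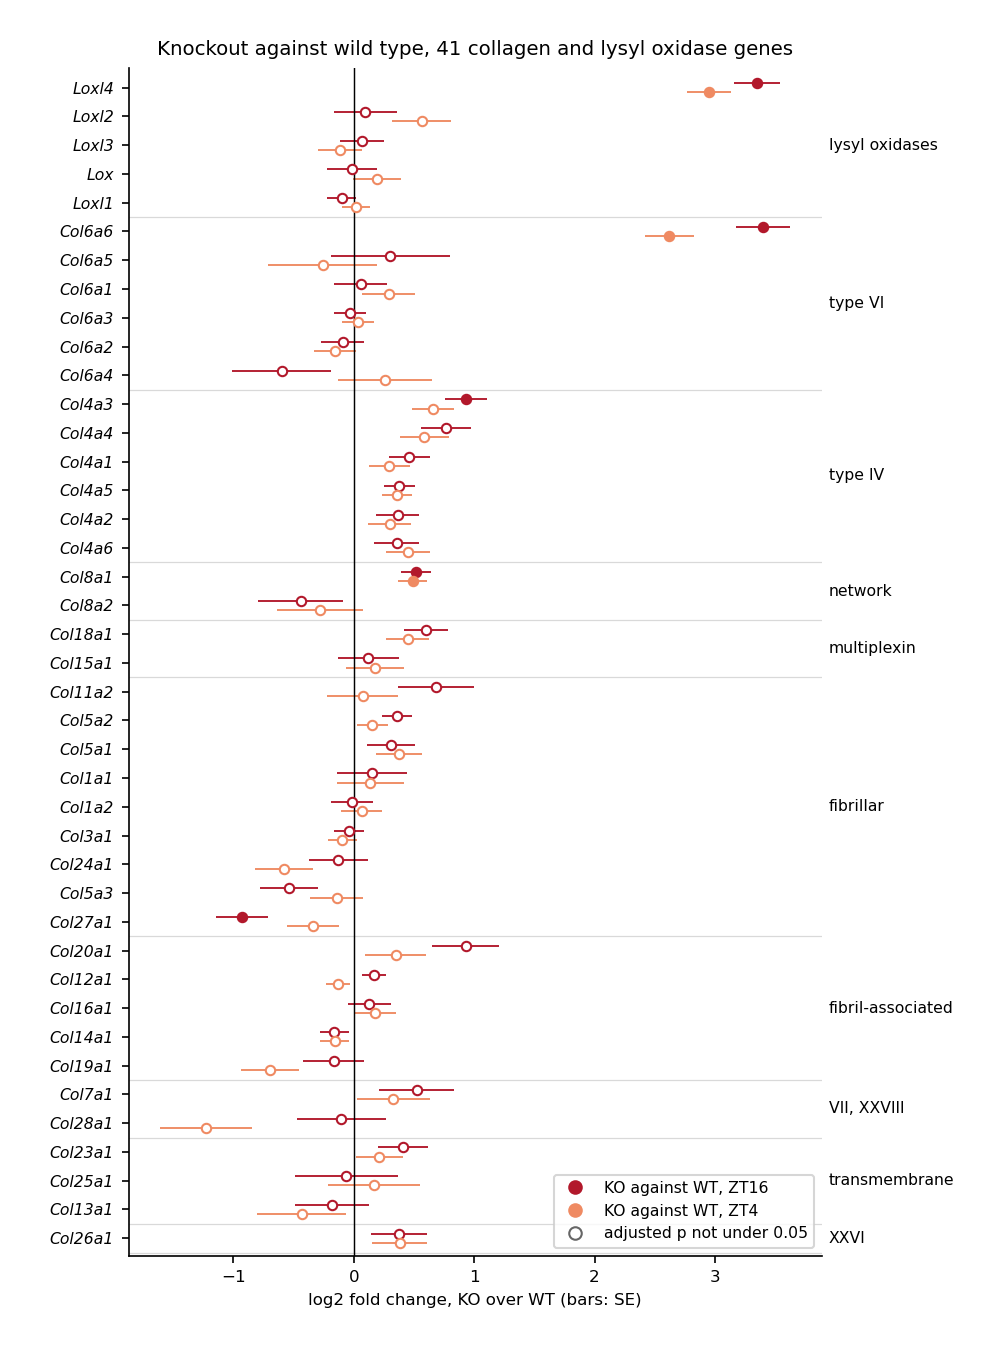
Fitted log2 fold change, KO over WT (x axis, bars: SE), for the 41 members grouped by family (y axis), at ZT16 and at ZT4. Filled points are called at adjusted p under 0.05; Loxl4 and Col6a6 lie at 2.62 or above at both times, and no other member lies above 0.93.

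The main interstitial fibril genes passed no genotype test. Col3a1 had log2 fold changes of -0.04 ± 0.12 at ZT16 and -0.09 ± 0.12 at ZT4, Col1a1 of 0.15 ± 0.29 at ZT16 and 0.14 ± 0.28 at ZT4, and Col1a2 of -0.02 ± 0.17 at ZT16 and 0.07 ± 0.17 at ZT4, all with KO and WT libraries overlapping. Of the 9 fibrillar members only Col27a1 was called in a genotype comparison. The fibroblast and pericyte markers gave no genotype call among 9, and summed to 170 to 244 CPM in KO ZT16 libraries, against 211 to 235 CPM in WT ZT16 libraries.

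Leaving out KO ZT16 replicate 2 raised the members called, of 41, to 13 at ZT16, 7 at ZT4 and 15 over both times. Without it 5099, 2503 and 6935 of all tested genes were called in these comparisons, against 651, 531 and 1834 of 16150 with it. The rise was thus not particular to the members. The members gained at ZT16 were Col4a1, Col4a2, Col4a4, Col4a5, Col18a1, Col20a1, Col5a1 and Col7a1, and at ZT4 Col4a3, Col4a4, Col4a5 and Col18a1. Of the 8 gained at ZT16, 4 were type IV genes.

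Between the times, most of the members called were lower in the dark phase. In KO kidneys 7 members were called lower at ZT16 than at ZT4 and 1 higher, where 10.5% of all tested genes were called, 5.2% lower and 5.27% higher. In WT kidneys 7 were called lower and none higher, where 6.5% of all tested genes were called, 3.63% lower and 2.87% higher. All ZT16 libraries lay below all ZT4 libraries for 15 members in KO and 16 in WT, as for 22.2% and 21.3% of all tested genes. Of the 41 log2 fold changes, 28 were negative in KO and 35 in WT, with medians of -0.25 in KO and -0.32 in WT, while the median of all tested genes was -0.01 in each. Col3a1, Col1a1, Col15a1, Col4a2 and Col8a1 were called lower in both genotypes, 5 members of 41, and 2.04% of all tested genes were. The 2 genotypes' libraries are separate here, though 1 fit supplied the spread for both. The share of counts from mitochondrial genes was higher at ZT16. It was 14.0% to 22.3% in KO ZT16 libraries, against 12.6% to 12.8% in KO ZT4 libraries. In WT it was 18.7% to 22.4% at ZT16, against 16.3% to 18.0% at ZT4. The part of this share in the time differences was not tested.

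**Figure D4:**
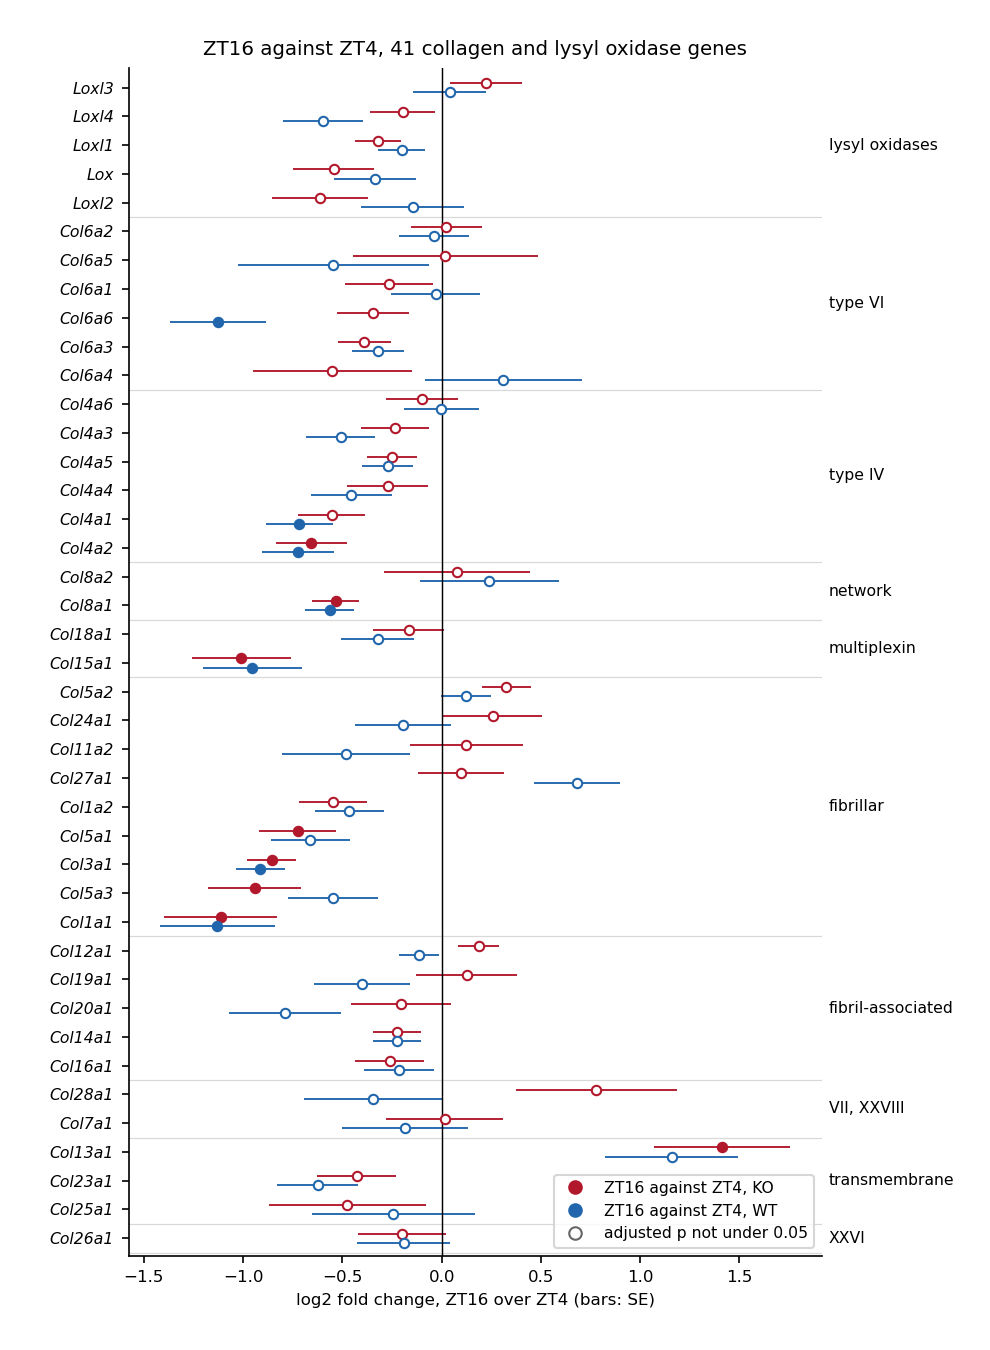
Fitted log2 fold change, ZT16 over ZT4 (x axis, bars: SE), for the 41 members grouped by family (y axis), in KO and in WT kidneys. Filled points are called at adjusted p under 0.05; most points lie left of 0, and Col13a1 lies farthest right.

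Col3a1, the chain of type III collagen, which runs with type I in the interstitium, showed the clearest difference. It had 23.4, 21.6 and 25.9 CPM in KO ZT16 libraries, against 44.6, 41.1 and 42.7 CPM in KO ZT4 libraries, and 25.02, 25.1 and 22.7 CPM in WT ZT16 libraries, against 43.9, 37.96 and 55.2 CPM in WT ZT4 libraries. All 6 ZT16 libraries lay below all 6 ZT4 libraries, KO ZT16 replicate 2 among its replicates. The log2 fold change was -0.86 ± 0.12 (0.552 of the ZT4 level, adjusted p = 0.00493) in KO and -0.91 ± 0.12 (0.531, adjusted p = 0.0024) in WT, and both calls held under every alternative run. The 250 bases before its start (chr1:45311288-45311537, plus strand, RefSeq on GRCm38.p6) are shown because Col3a1 had the steadiest difference between the times; they are 35.2% G or C and hold none of the motifs searched.
Col3a1: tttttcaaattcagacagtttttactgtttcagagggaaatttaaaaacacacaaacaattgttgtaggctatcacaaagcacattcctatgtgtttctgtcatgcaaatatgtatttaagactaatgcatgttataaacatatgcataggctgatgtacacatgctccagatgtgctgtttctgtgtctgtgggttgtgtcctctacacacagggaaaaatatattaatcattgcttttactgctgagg
Col5a2, which encodes a type V chain that co-assembles with type I, lies end to end with Col3a1 at a distance of 24614 bases. It had positive log2 fold changes, 0.33 ± 0.12 in KO and 0.12 ± 0.13 in WT, and was called in neither.

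Col1a1, the main chain of type I collagen, had 6.84, 10.9 and 12.98 CPM in KO ZT16 libraries, against 22.1, 22.9 and 21.4 CPM in KO ZT4 libraries. In WT it had 12.9, 8.77 and 5.90 CPM at ZT16, against 18.3, 15.0 and 27.0 CPM at ZT4. The times did not overlap in either genotype, and the spread within a group was wide in all but KO ZT4. Its log2 fold change was -1.11 ± 0.29 in KO (0.462 of the ZT4 level, adjusted p = 0.0337) and -1.13 ± 0.29 in WT (0.457, adjusted p = 0.0392). Its partner Col1a2 had -0.55 ± 0.17 in KO (adjusted p = 0.0591) and -0.46 ± 0.17 in WT (adjusted p = 0.111). The ratio of Col1a2 to Col1a1 per kilobase was 2.25 ± 0.195 (SD, n = 3) in KO ZT16 libraries, against 1.49 ± 0.0678 in KO ZT4 libraries, and 2.68 ± 0.781 in WT ZT16 libraries, against 1.60 ± 0.178 in WT ZT4 libraries. Every ZT16 library had a higher ratio than any ZT4 library.

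Type V chains start and control fibril width. Col5a1 had 3.59, 5.82 and 5.97 CPM in KO ZT16 libraries, against 9.85, 7.49 and 8.13 CPM in KO ZT4 libraries, and 4.64, 4.46 and 3.30 CPM in WT ZT16 libraries, against 6.36, 6.05 and 7.20 CPM in WT ZT4 libraries. Col5a3 had 1.30, 1.65 and 1.19 CPM in KO ZT16 libraries, against 2.88, 3.17 and 1.91 CPM in KO ZT4 libraries, and 1.65, 2.63 and 1.73 CPM in WT ZT16 libraries, against 2.99, 2.71 and 3.16 CPM in WT ZT4 libraries. Each had its ZT16 libraries below its ZT4 libraries in both genotypes. Both were called in KO (-0.73 ± 0.19, adjusted p = 0.0386, for Col5a1 and -0.94 ± 0.23, adjusted p = 0.0311, for Col5a3) and not in WT (-0.66 ± 0.20, adjusted p = 0.0643, for Col5a1 and -0.55 ± 0.23, adjusted p = 0.139, for Col5a3), and no interaction was called. Without KO ZT16 replicate 2, Col5a1 in KO had -0.53 and lost its call (adjusted p = 0.0505).

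Col15a1, a multiplexin that anchors basement membranes to nearby fibrils, had 8.28, 13.3 and 16.5 CPM in KO ZT16 libraries, against 26.3, 24.0 and 26.3 CPM in KO ZT4 libraries. In WT it had 12.6, 13.9 and 8.43 CPM at ZT16, against 22.7, 16.7 and 28.3 CPM at ZT4. The times separated in both genotypes (-1.01 ± 0.25, adjusted p = 0.0304, in KO and -0.95 ± 0.25, adjusted p = 0.043, in WT). Its relative Col18a1, described above, was called in neither.

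The basement membrane pair Col4a1 and Col4a2 was also compared between the times. From the libraries given above, Col4a2 was lower at ZT16, with log2 fold changes of -0.66 ± 0.18 in KO (adjusted p = 0.0409) and -0.72 ± 0.18 in WT (adjusted p = 0.0361). Col4a1 was called in WT (-0.72 ± 0.17, adjusted p = 0.0293) and not in KO (-0.55 ± 0.17, adjusted p = 0.0543). The Col4a1 to Col4a2 ratio per kilobase was 1.30 ± 0.0293 (SD, n = 3) in KO ZT16 libraries, against 1.21 ± 0.0506 in KO ZT4 libraries, and 1.22 ± 0.023 in WT ZT16 libraries, against 1.21 ± 0.0279 in WT ZT4 libraries. Col4a3, Col4a4, Col4a5 and Col4a6 had negative log2 fold changes in both genotypes, down to -0.27 in KO and -0.51 in WT, and none was called. Most podocyte and parietal markers were lower too. Of 7 podocyte markers, 7 had negative log2 fold changes in KO (2 called lower, median -0.41) and 6 in WT (1 called lower, median -0.24). Of the 3 parietal markers all were negative in both genotypes, with 1 called lower in each. Mesangial markers, also glomerular, were split, with 2 of 4 negative and 1 called lower in each genotype. Of all tested genes, 5.2% were called lower in KO and 3.63% in WT. Endothelial markers had medians of -0.11 in KO and -0.15 in WT, with mixed signs: 3 of 8 were positive in KO and 2 in WT. In KO 1 of them was called higher and none lower, and in WT 1 higher and 1 lower. For collecting duct markers the medians were 0.07 in KO and 0.15 in WT. The part of these markers in the values of the type IV genes was not tested. Col8a1 was lower at ZT16 in KO (-0.53 ± 0.12, adjusted p = 0.0219) and in WT (-0.56 ± 0.12, adjusted p = 0.0213). Col6a6 was called lower in WT (-1.13 ± 0.24, 0.458 of the ZT4 level, adjusted p = 0.0206) and not in KO (-0.35 ± 0.18, adjusted p = 0.181).

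Col13a1, a transmembrane collagen found at cell adhesions, was the member called higher in the dark. It had 1.37, 1.84 and 1.59 CPM in KO ZT16 libraries, against 0.607, 0.694 and 0.477 CPM in KO ZT4 libraries, and 1.03, 2.47 and 1.91 CPM in WT ZT16 libraries, against 1.195, 0.601 and 0.613 CPM in WT ZT4 libraries. The times separated in KO and overlapped in WT. It was higher by 1.41 ± 0.34 in KO (2.66-fold, adjusted p = 0.0295) and had 1.16 ± 0.33 in WT (adjusted p = 0.0583), on 14 to 88 reads per library.

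**Figure D5:**
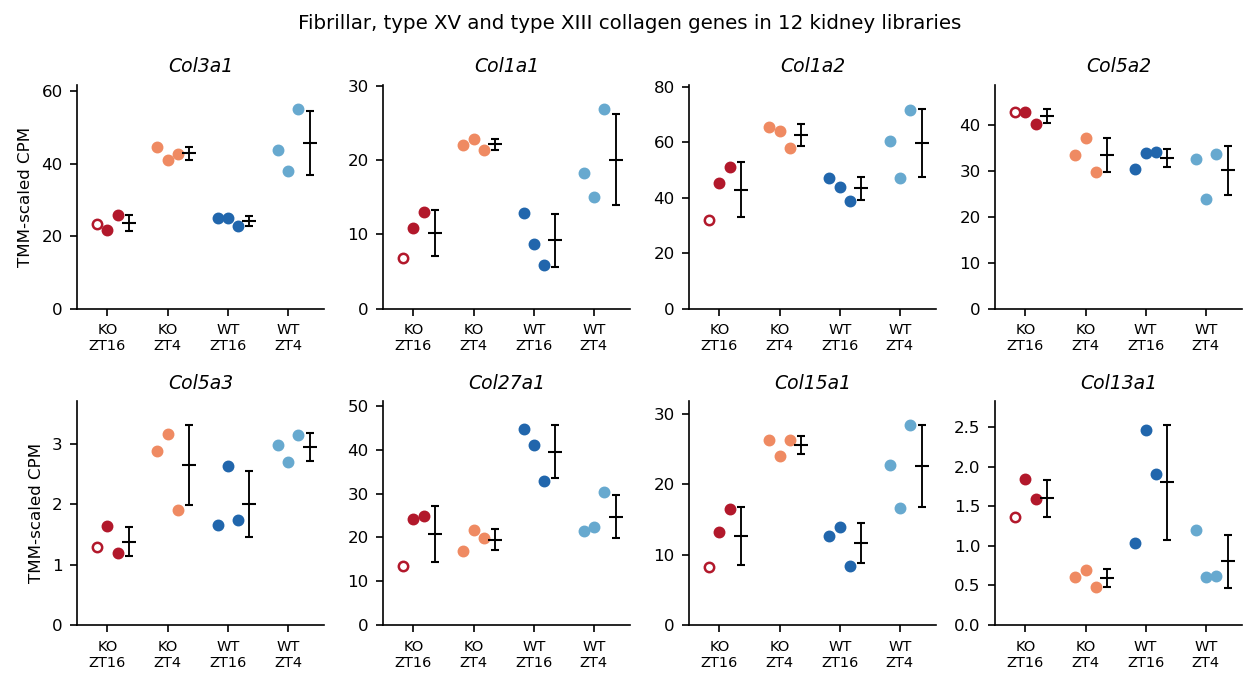
Levels of fibrillar, type XV and type XIII collagen genes (y axis, TMM-scaled CPM, from 0) in the 12 libraries by genotype and time (x axis), with the mean and SD of 3 libraries as black bars and KO ZT16 replicate 2 as the open point. Col3a1 and Col1a1 have all ZT16 libraries below all ZT4 libraries of their genotype.

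Every call between the times except those of Col3a1 was lost when at least 1 library was left out. The count in KO was 1 without KO ZT4 replicate 2 or 4, 2 without KO ZT4 replicate 6, 5 without WT ZT4 replicate 1 and 8 without KO ZT16 replicate 2. The count in WT was 1 without WT ZT4 replicate 5, 2 without WT ZT16 replicate 5, 3 without WT ZT4 replicate 1 or WT ZT16 replicate 1 or 3, 4 without any 1 of the KO ZT4 libraries and 18 without KO ZT16 replicate 2. Such shifts were not particular to the members, since the calls over all genes also moved widely over the omissions (ranges in the closing section). With only the 6 libraries of a genotype fitted, 1 member was called in KO, Col3a1, and 14 in WT, with 36 and 3557 of all genes. Beside the fibrillar genes, 3 of 9 fibroblast and pericyte markers were called lower at ZT16 in KO and 1 in WT, against 5.2% of all tested genes in KO and 3.63% in WT. These 9 markers were split in sign, with 4 log2 fold changes positive and 5 negative in KO, and 3 positive and 6 negative in WT. Their summed level was 170 to 244 CPM in KO ZT16 libraries, against 213 to 229 CPM in KO ZT4 libraries, and 211 to 235 CPM in WT ZT16 libraries, against 214 to 249 CPM in WT ZT4 libraries. Their part in the result was not tested.

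Whether the genotype difference itself changed with time was tested as the interaction. No member was called, where 0.0186% of all tested genes were, and DESeq2 and limma voom also called 0. At an unadjusted p under 0.05, which 3.34% of all tested genes met, edgeR gave 1 of 41, Col6a6, with 0.78 ± 0.30 and an adjusted p of 1.0. Loxl4 had 0.40 as the difference of its 2 log2 fold changes, with an SE of 0.26.

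Genes that act on collagen were followed from lists chosen by function. Of 20 tested genes for collagen folding and modification, 2 were called higher and 2 lower in KO over both times, where 6.04% of all tested genes were called higher and 5.31% lower. Plod2 encodes the enzyme that hydroxylates the telopeptide lysines on which lysyl oxidases act. It averaged 103.5 ± 7.63 CPM (SD, n = 3) in KO ZT16 libraries, against 45.2 ± 2.09 CPM in WT ZT16 libraries, and 98.3 ± 5.64 CPM in KO ZT4 libraries, against 52.3 ± 4.28 CPM in WT ZT4 libraries. Plod2 was called at ZT16 (1.196 ± 0.089, adjusted p = 1.2e-05) and at ZT4 (0.91 ± 0.09, adjusted p = 0.000118), whichever library was left out. Creb3l1, a transcription factor of collagen secretion, was called higher over both times (0.70 ± 0.16, adjusted p = 0.0171), and P4hb, the shared subunit of prolyl 4-hydroxylase, was called lower (-0.30 ± 0.06, adjusted p = 0.0112).

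Among genes of other basement membrane proteins, the genotype calls were all toward higher levels in KO. Of 22 tested, 7 were called higher and none lower over both times, and their median log2 fold change was 0.26, against 0.01 over all tested genes, of which 6.04% were called higher and 5.31% lower. Npnt, which encodes an integrin ligand, averaged 237 ± 60.3 CPM (SD, n = 3) in KO ZT16 libraries, against 110.1 ± 7.45 CPM in WT ZT16 libraries. At ZT4 it averaged 275 ± 17.5 CPM in KO libraries, against 146 ± 7.53 CPM in WT libraries. Its log2 fold change was 1.10 ± 0.15 at ZT16 (adjusted p = 0.00121) and 0.91 ± 0.15 at ZT4 (adjusted p = 0.00596). Pxdn, whose peroxidase links type IV collagen networks through sulfilimine bonds, was called in both genotype comparisons and both time comparisons, higher in KO (0.72 ± 0.09 at ZT16 and 0.41 ± 0.08 at ZT4) and lower at ZT16 (-0.47 ± 0.08 in KO and -0.78 ± 0.09 in WT). Nid2, a nidogen that joins laminin to type IV collagen, was called higher in KO at ZT16 (0.93 ± 0.18, adjusted p = 0.01). Between the times, 3 of the 22 were called lower in KO, where 5.2% of all tested genes were, and 4 in WT, where 3.63% were, and none was called higher.

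For the remaining lists, the shares of all tested genes called over both times were the 6.04% higher and 5.31% lower given above. Of 18 tested genes for procollagen processing and fibril assembly, 1 was called between genotypes over both times, Bmp1, which trims procollagen ends and activates lysyl oxidase (0.47 ± 0.12, adjusted p = 0.0245, lost in 7 of 12 omissions). Of 16 tested genes for breakdown and uptake, 1 was called lower over both times, Pepd, the dipeptidase that frees proline from collagen fragments (-0.41 ± 0.09, adjusted p = 0.0123). The membrane collagenase gene Mmp14 was lower at ZT16 in KO (-1.04 ± 0.21, adjusted p = 0.0169) and in WT (-0.96 ± 0.22, adjusted p = 0.0269). Of 9 tested collagen receptors, 1 was called lower over both times, the leukocyte receptor Lair1 (-0.53 ± 0.14, adjusted p = 0.0318, called in 3 of 12 omissions). Macrophage markers moved with it: all 6 had negative log2 fold changes over both times and 2 were called lower. They summed to 95.6 to 109.4 CPM in KO ZT16 libraries, against 118.4 to 128.7 CPM in WT ZT16 libraries, and to 100.5 to 109.3 CPM in KO ZT4 libraries, against 119.6 to 155 CPM in WT ZT4 libraries, and their part in the Lair1 value was not tested. Of 15 tested elastic fibre genes, 2 were called higher and 2 lower in KO over both times. Efemp1, which encodes the elastic fibre protein fibulin-3, was higher (0.35 ± 0.07, adjusted p = 0.00441, called in 12 of 12 omissions). Fbn1, which encodes the microfibril protein fibrillin-1, was lower at ZT16 in KO (-1.005 ± 0.159, adjusted p = 0.00705) and in WT (-0.94 ± 0.16, adjusted p = 0.00686).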

How the data were processed

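RNA of whole kidneys was measured in 12 libraries, made from 500 ng of RNA each with a stranded mRNA kit, per the labels' protocols. The deposited files give raw read counts per gene, which the authors made with cutadapt 1.2.1, TopHat2 2.0.9 and HTSeq 0.5.4p3 on GRCm38, per the submitters' processing notes. How HTSeq was set for strand and for reads that overlap several genes, and with which annotation, was not stated. GENCODE M21 on GRCm38 gave a name to 37607 of the 38924 gene IDs. HTSeq's summary lines, which name no gene, entered neither library sizes nor tests: 30.8% to 43.0% of a library was not uniquely aligned, 3.50% to 5.96% had no feature and 0.411% to 0.534% was ambiguous.

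After filterByExpr and TMM scaling, the counts were tested with the quasi-likelihood functions glmQLFit and glmQLFTest of edgeR 4.0.16 (R 4.3.3) in 1 fit of all 12 libraries and 4 groups with 8 residual degrees of freedom. P-values were adjusted by Benjamini and Hochberg's method across the 16150 tested genes, and adjusted values under 0.05 were called. SE belongs to the fitted log2 fold change and SD to CPM over 3 libraries. The fit was checked on simulated counts. Exonic length is the union of a gene's exons.

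Members and lists were chosen with earlier results of these data known. Values per library are given for the 16 called members with the smallest adjusted p, the lysyl oxidases and the 4 members with most counts per kilobase, and up to 3 called genes are named of each other list. The alternatives were scaling by RLE or upper quartile, leaving out the filter, DESeq2 1.42.0, limma voom 3.58.1, fitting only the libraries compared, omitting each library in turn and blocking on replicate number. A further list is not reported here. Protein sequences were not used here.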

Additional observations from a re-analysis of the deposited data

How the results depend on the processing

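Over the 32 called results of single members, 582 alternative values were computed: 444 kept the call and direction, 138 kept the direction without the call, and none reversed. With only the compared libraries fitted, members called were 2 at ZT16, 8 at ZT4, 1 between the times in KO and 14 in WT; all genes called were then 200, 2877, 36 and 3557, against 651, 531, 1691 and 1050. DESeq2 called 8 members at ZT16 and 13 between the times in WT, and 1008, 1061, 3705 and 2149 of all genes in those 4 comparisons. Leaving out each library gave 3 to 13 members at ZT16, 2 to 7 at ZT4, 5 to 15 over both times, 1 to 12 between the times in KO, 1 to 18 in WT and 0 for the interaction. The highest counts at ZT16, at ZT4, over both times and in WT came without KO ZT16 replicate 2. The lowest came without KO ZT4 replicate 6 or WT ZT16 replicate 1 or 3 at ZT16 and without KO ZT4 replicate 2 over both times. For all genes called the omissions gave 380 to 5099 at ZT16, 228 to 2503 at ZT4, 1120 to 6935 over both times, 181 to 3629 between the times in KO and 220 to 5473 in WT. The cause of these shifts was not tested.

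Replicate numbers are shared between the times within a genotype. Same-numbered libraries did not deviate together (correlations of -0.266 to 0.054, and no library correlated best with its own number), so the numbers were not taken as pairs. With the replicate number as a block, 1 member (Col3a1) was called between the times in KO and 1 (Col3a1) in WT, with 189 and 229 of all genes, and 0 for the interaction.

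Values near 0 of uncalled lysyl oxidases changed sign when a library was left out. At ZT16 leaving out each library gave Lox -0.297 to 0.157, with 0.157, 0.054 and 0.09 without KO replicate 4, KO replicate 6 and WT replicate 5. Loxl2 ran from -0.18 to 0.242 there, negative without KO replicate 4 (-0.18) or WT replicate 1 (-0.003), and Loxl3 from -0.031 (without WT replicate 3) to 0.166. At ZT4 Loxl1 ran from -0.057 to 0.148, with -0.015, -0.057 and -0.024 without KO replicate 6, WT replicate 3 and WT replicate 5, and Loxl3 from -0.3 to 0.068 (without WT replicate 1). Members with few reads, such as Col28a1 with 3 to 12 per library, allow no statement on small differences.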
